A study of Homo sapiens with 15 samples.

Results

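Pyruvate made in the cytosol enters mitochondria through a carrier, is turned into acetyl-CoA or oxaloacetate, and is burned in the citrate cycle. The 31 genes described here encode the mitochondrial pyruvate carrier, the pyruvate dehydrogenase complex and its kinases, pyruvate carboxylase, mitochondrial phosphoenolpyruvate carboxykinase, and enzymes of the citrate cycle with some of their cytosolic counterparts. They were taken by symbol from a table of 17272 genes, and each of the 31 symbols had a row. Normal prostate epithelium is known for making and secreting citrate while holding much zinc, and androgens support this program. Prostate cancer cells usually burn more of their citrate or use it to make fatty acids.

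The cells were LNCaP, a line from a human prostate cancer that responds to androgen. All cells were first kept for 2 days in medium with charcoal-stripped serum, which is poor in steroids, and were then treated for 22 h. The control group of 10 libraries received the synthetic androgen R1881 at 1 nM with the solvent DMSO, and the other group of 5 libraries received R1881 at 1 nM together with 2 µM enzalutamide, an inhibitor of the androgen receptor. No group without androgen was compared, so every difference below is that between androgen alone and androgen with the inhibitor. Polyadenylated RNA was sequenced, and mRNA expression is given in CPM, the deposited counts scaled to a library size that the authors had adjusted.

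The libraries held between 15830745 and 25416052 recovered reads, and the lowest count of any of the 31 genes in a library was 250 reads. Androgen-induced genes fell under enzalutamide, as shown by KLK2 (log2 fold change -4.87), TMPRSS2 (-3.56) and FKBP5 (-4.99). Luminal markers were present for 7 of 7 genes, with a summed level of 5484 to 6050.0 CPM under R1881 and 2821 to 2938 CPM with enzalutamide, while 0 of 4 leukocyte markers, 1 of 3 endothelial, 2 of 4 fibroblast and 1 of 3 basal markers had a row. The fibroblast sum was 4.61 to 8.55 CPM under R1881 and 8.89 to 13.9 CPM with enzalutamide. The endothelial marker VWF lay at 2.08 to 2.84 and 2.84 to 3.35 CPM, and the basal marker KRT14 at 0.706 to 1.44 and 0 to 0.279 CPM. Their part in the results was not tested. Single libraries deviated from the mean of their group with a trend on GC content that differed among them, with a Spearman correlation across genes, which are not independent replicates, of -0.62 to 0.73 in the R1881 libraries and -0.48 to 0.70 in the enzalutamide libraries, highest in the second of these. The R1881 libraries carry label numbers 51 to 55 and 71 to 75 and the enzalutamide libraries 81 to 85. What these numbers stand for is not stated, and number series and treatment cannot be told apart. In bulk RNA, fewer cells of a type and less RNA per cell cannot be told apart.

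Under enzalutamide, 14 of the 31 genes were lower and 4 were higher at an adjusted p under 0.05 in limma, while 13 did not pass the test. The background was high, because 62.5% of all 17046 genes tested were called, 32.7% lower and 29.8% higher. The share of the 31 genes was 58.1% in either direction, 45.2% lower and 12.9% higher. When library totals were set to 1000000 in place of the authors' scaling, the split of the 31 genes became 10 lower and 8 higher, with 64.1% of all genes called, and the lower share of all calls moved from 52.3% to 39.3%. Calls of a larger size were mostly downward. Of the 31 genes, 8 were called lower with a log2 fold change of at least 0.4 in size (25.8%, against 15.7% of all genes) and 1 was called higher by as much (3.23%, against 14.9%). With library totals of 1000000 these counts were 5 lower (16.1%, against 12.2% of all genes) and 1 higher (3.23%, against 19.1%), since IDH2, IDH3A and PDK1 then fell by less than 0.4. A fall of at least 2-fold was called for 2 genes (6.45%, against 4.19% of all genes) and a rise of at least 2-fold for 0 (against 3.26%). The median log2 fold change was -0.06, beside -0.01 for all genes. For 10 genes the enzalutamide libraries were all below the R1881 libraries (32.3%, against 20.1% of all genes) and for 2 genes all above them (6.45%, against 17.1%).

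**Figure D1:**
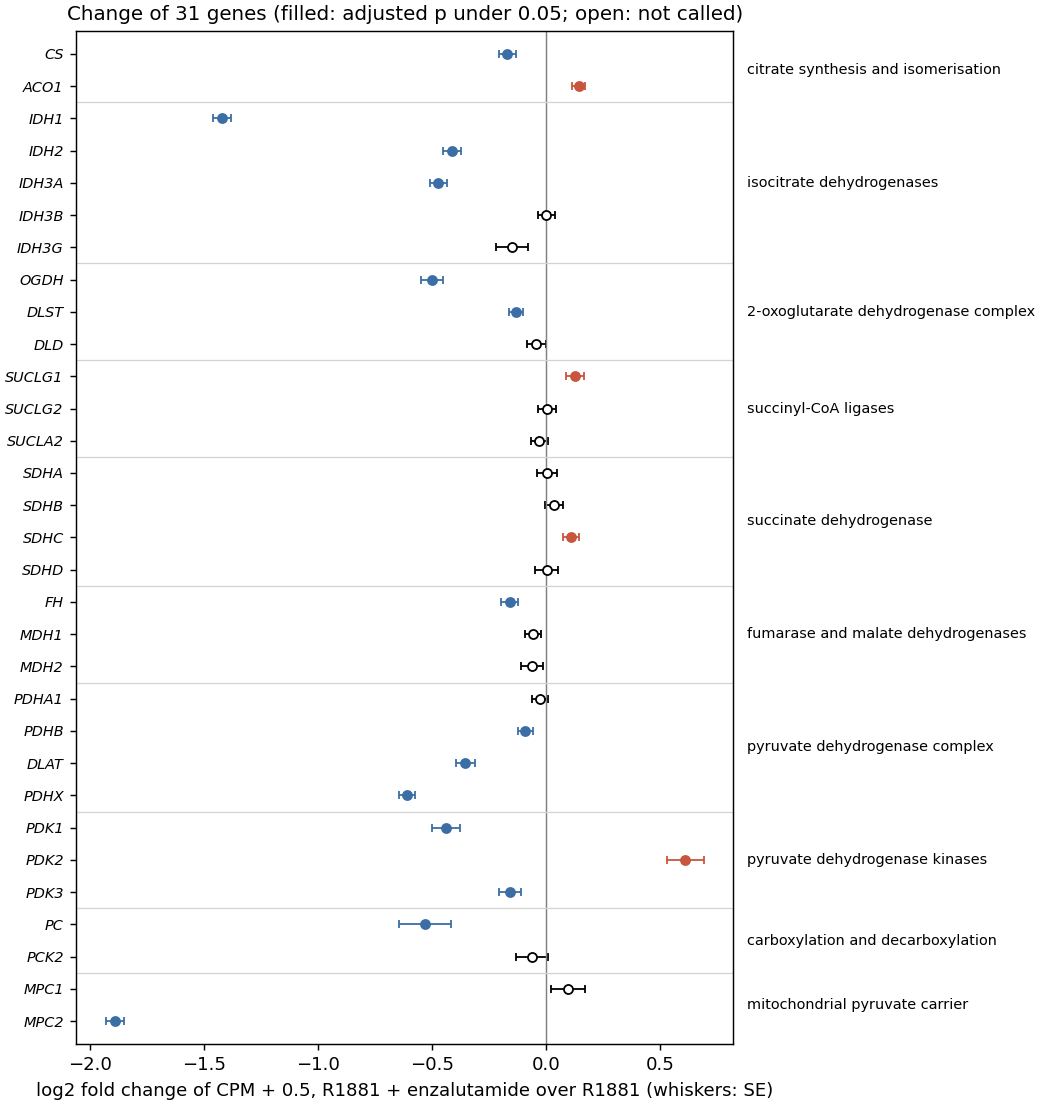
Log2 fold change of R1881 + enzalutamide over R1881 for the 31 genes, grouped by role, with whiskers for the SE (10 and 5 libraries); blue filled points were called lower, red filled points called higher, and open points were not called. MPC2 (-1.89) and IDH1 (-1.42) lie far to the left of the rest, and PDK2 (0.61) is the point farthest to the right.

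The DNA just before the start of 4 genes is shown, because these genes had the largest changes in each direction or, for PDHX, share this stretch with a neighbour that fell too. Each line holds the 250 bases before the start of the RefSeq transcript in GRCh38.p14, 5′ to 3′ on the strand of the gene, with every match to GGGCGG (the GC box), CCAAT (the CCAAT box) and CACGTG (the E-box) on either strand in capitals. The windows are chr1:167937073-167937322 (minus strand) for MPC2, chr2:208255072-208255321 (minus strand) for IDH1, chr11:34916368-34916617 (plus strand) for PDHX and chr17:50095101-50095350 (plus strand) for PDK2.
MPC2: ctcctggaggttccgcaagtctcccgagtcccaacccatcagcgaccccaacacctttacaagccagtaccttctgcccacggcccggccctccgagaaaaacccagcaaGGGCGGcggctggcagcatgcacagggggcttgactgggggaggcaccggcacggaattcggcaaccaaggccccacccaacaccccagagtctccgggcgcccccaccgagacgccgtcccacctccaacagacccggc
IDH1: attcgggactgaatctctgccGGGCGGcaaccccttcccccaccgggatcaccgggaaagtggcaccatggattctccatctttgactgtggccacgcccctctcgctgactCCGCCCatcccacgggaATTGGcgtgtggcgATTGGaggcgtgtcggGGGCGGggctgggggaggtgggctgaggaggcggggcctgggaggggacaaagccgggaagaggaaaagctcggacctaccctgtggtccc
PDHX: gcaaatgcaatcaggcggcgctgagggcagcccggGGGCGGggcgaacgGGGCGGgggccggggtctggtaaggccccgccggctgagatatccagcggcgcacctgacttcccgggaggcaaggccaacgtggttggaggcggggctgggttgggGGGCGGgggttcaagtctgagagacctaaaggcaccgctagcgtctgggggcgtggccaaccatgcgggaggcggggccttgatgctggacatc
PDK2: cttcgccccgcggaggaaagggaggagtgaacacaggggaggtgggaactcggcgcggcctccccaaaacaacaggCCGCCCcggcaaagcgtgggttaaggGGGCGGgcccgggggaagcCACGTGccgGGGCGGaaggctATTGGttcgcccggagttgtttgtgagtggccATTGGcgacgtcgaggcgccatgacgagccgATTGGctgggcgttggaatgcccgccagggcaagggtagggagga
Promoter windows were found for 29 of the 31 genes, with 40 windows in all. GGGCGG stood in 62.5% of these windows, beside 42.6% of all 35116 windows, and CCAAT in 45% beside 32%. AGAACA, the letters of a single arm of steroid receptor elements, stood in 1 of the 40 windows, that of PC, beside 12.4% of all windows. The palindromic steroid receptor element with both arms stood in 0 of the 40, beside 0.00285% of all. CACGTG was found for PDHB and PDK2 (5% of windows, beside 6.34%), the NRF1 consensus for SDHD (2.5%, beside 1.03%) and TCAAGGTCA for 0 genes (0.319% of all windows). These matches describe letters in short windows and are not evidence of binding.

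Pyruvate enters the mitochondrial matrix through a carrier made of MPC1 and MPC2, and these subunits differed. MPC2 (chromosome 1, 167916675 to 167937072, minus strand, with this and all later positions from GRCh38) had the lowest log2 fold change of the 31 genes. Its level lay from 639 to 735 CPM (median 673) in the R1881 libraries and at 183, 169, 190.1, 188 and 186 CPM in the enzalutamide libraries. The groups were far apart, with means of 681 ± 35.7 CPM under R1881 (SD, n = 10) and 183 ± 8.33 CPM with enzalutamide (SD, n = 5). MPC2 was thus 3.71-fold lower with enzalutamide (log2 fold change -1.89, SE 0.0388, adjusted p = 5.87e-20). Both R1881 series were high, with medians of 709.8 CPM in libraries 51 to 55 and 658 CPM in libraries 71 to 75. MPC1 (chromosome 6, 166364919 to 166383013, minus strand) lay from 16.5 to 24.1 CPM (median 20.4) under R1881 and at 23.4, 19.3, 22.7, 19.9 and 21.5 CPM with enzalutamide. These ranges overlapped, and the difference did not pass the test (log2 fold change 0.10, SE 0.0746, adjusted p = 0.273). With library totals of 1000000 MPC1 was called higher (0.19, adjusted p = 0.0293). Per kb of exon, the median level of MPC2 was 255 CPM per kb under R1881 and 70.7 with enzalutamide, and that of MPC1 was 13.2 CPM per kb under R1881 and 14 with enzalutamide. The length used is that of all annotated exons of a gene together, not of a single transcript. On this scale MPC2 was the highest of the 31 genes under R1881, just above IDH1 at 250.4 CPM per kb. The order of MPC2 and IDH1 depends on the length used.

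**Figure D2:**
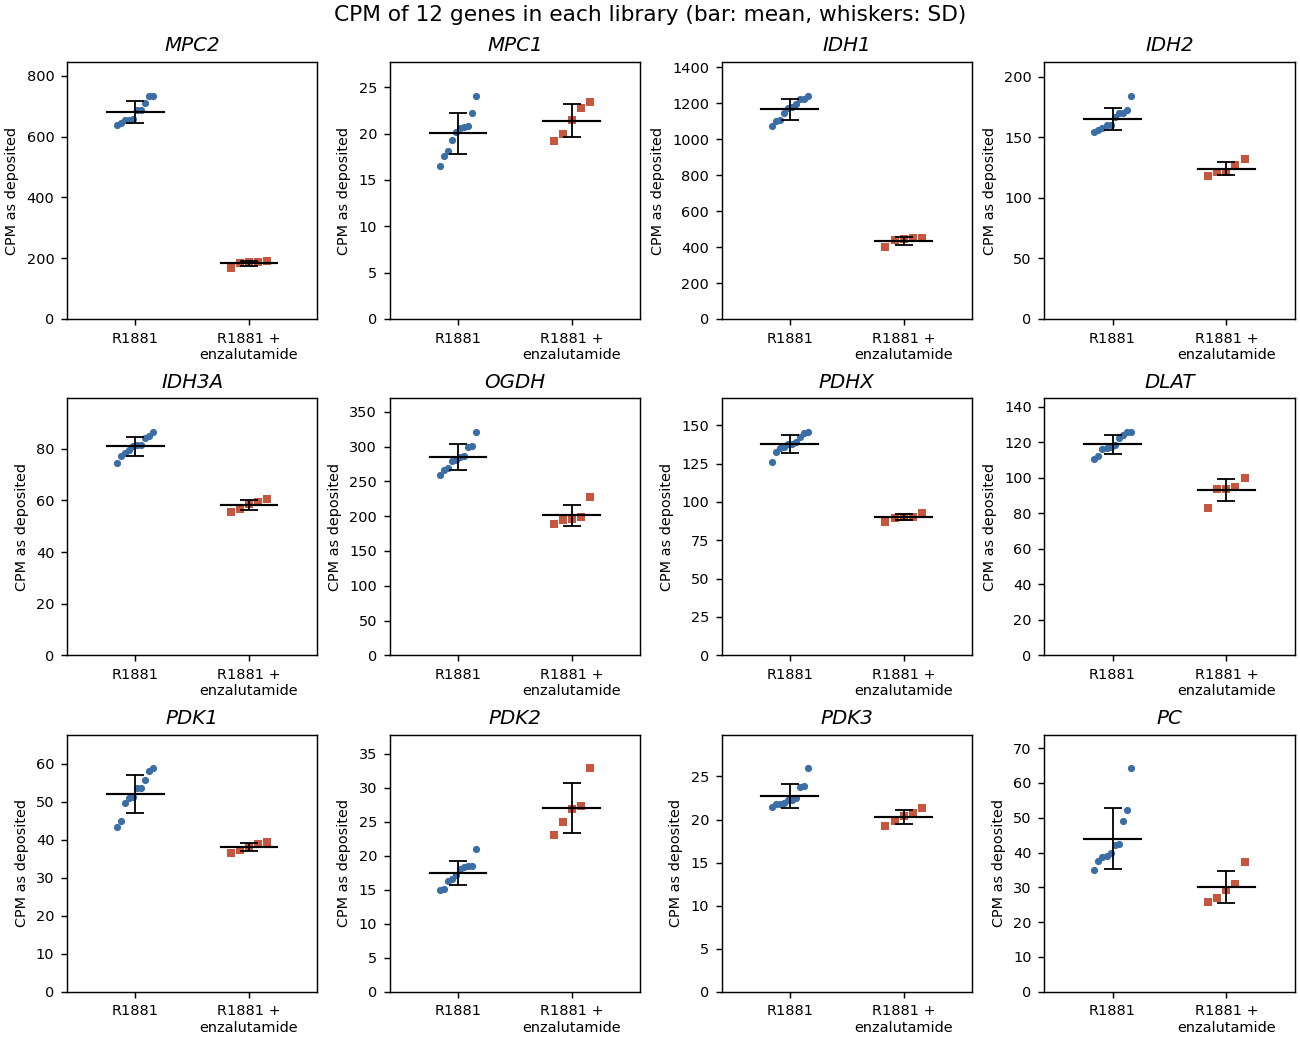
CPM as deposited of 12 of the genes in each R1881 library (10 points) and each R1881 + enzalutamide library (5 points), with the mean as a bar and the SD as whiskers; each panel starts at 0 and has its own scale. MPC2 and IDH1 show wide gaps between the groups, and PDK2 is higher in each enzalutamide library.

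The pyruvate dehydrogenase complex turns pyruvate into acetyl-CoA. Of its 4 genes other than the shared DLD, 3 fell and 1 did not pass the test, while 32.7% of all genes tested were called lower. PDHX, which encodes the protein that anchors the DLD subunit in the complex, fell the most (chromosome 11, 34915829 to 35020591, plus strand). Its level lay from 126 to 146 CPM (median 138) under R1881 and at 89.7, 86.9, 90.5, 92.4 and 90.4 CPM with enzalutamide. The groups did not overlap, and PDHX was 1.53-fold lower (log2 fold change -0.61, SE 0.0344, adjusted p = 2.18e-12). DLAT, the acetyltransferase core, lay from 111 to 126 CPM (median 118) under R1881 and at 93.6, 83.2, 93.6, 99.7 and 95.1 CPM with enzalutamide, again without overlap (log2 fold change -0.35, SE 0.0416, adjusted p = 2.43e-07). The E1 component, which carries out the first step and is the target of the kinases, had smaller differences. PDHB, its beta subunit, lay from 118 to 131 CPM (median 125) and at 117, 112, 118, 121 and 120.1 CPM. The ranges overlapped, and the small fall (log2 fold change -0.09, SE 0.0316, adjusted p = 0.0181) was lost without the second enzalutamide library (-0.07, adjusted p = 0.0624), in edgeR on the recovered reads (-0.05, adjusted p = 0.157) and against libraries 71 to 75 alone (-0.06, adjusted p = 0.163). PDHA1, the alpha subunit, lay from 73.4 to 83 CPM (median 77.5) and at 75.2, 76.2, 78.6, 78.2 and 74.3 CPM, and its difference did not pass the test (log2 fold change -0.03, SE 0.0356, adjusted p = 0.544). DLD, the dehydrogenase that this complex shares with others, lay from 225 to 269 CPM (median 250.1) under R1881 and from 224 to 251 CPM with enzalutamide (log2 fold change -0.04, SE 0.0412, adjusted p = 0.399). Among the alternatives run, DLD passed the test against libraries 51 to 55 alone (-0.10, adjusted p = 0.0364).

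The pyruvate dehydrogenase kinases switch the complex off by phosphorylating E1, and the 3 measured kinases went in different directions. PDK1 (chromosome 2, 172555373 to 172608669, plus strand) lay from 43.3 to 58.8 CPM (median 52.4) under R1881 and at 38.8, 36.6, 39.4, 38 and 37.3 CPM with enzalutamide. Every enzalutamide library was below the lowest R1881 library (log2 fold change -0.44, SE 0.0612, adjusted p = 2.57e-06). PDK2 (chromosome 17, 50094737 to 50112152, plus strand) lay from 15 to 20.9 CPM (median 17.6) under R1881 and at 23, 32.8, 26.8, 24.9 and 27.3 CPM with enzalutamide. It was higher in 5 of 5 enzalutamide libraries than in any R1881 library, by 1.53-fold (log2 fold change 0.61, SE 0.0791, adjusted p = 9.18e-07), and the second enzalutamide library was the highest. PDK2 was 0.54 higher on the log2 scale at the least when single libraries were left out. Of the 50-base windows of the PDK2 transcript, 62.3% also occur in transcripts of SAMD14 on the opposite strand, so reads of these genes can be told apart only with strand, and whether the counting used strand is not given. PDK3 lay from 21.4 to 25.9 CPM (median 22.3) under R1881 and at 20.8, 19.2, 21.4, 19.8 and 20.5 CPM with enzalutamide, and the groups met at 21.4 CPM. Its fall (log2 fold change -0.16, SE 0.0494, adjusted p = 0.00864) was lost against libraries 71 to 75 alone (adjusted p = 0.0602) and with library totals of 1000000 (adjusted p = 0.23). Per kb of all annotated exons together, PDK1 was at 3.53 CPM per kb under R1881 and 2.56 with enzalutamide. PDK2 was at 3.21 CPM per kb under R1881 and 4.91 with enzalutamide. Their order under R1881 depends on the length used, so no change of order is read from these values.

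Oxaloacetate can be made from pyruvate by pyruvate carboxylase and withdrawn by phosphoenolpyruvate carboxykinase. PC, the carboxylase (chromosome 11, 66848417 to 66958386, minus strand), lay from 34.8 to 64.2 CPM (median 41) under R1881 and at 25.9, 37.3, 29.2, 26.9 and 31 CPM with enzalutamide. It was 1.44-fold lower (log2 fold change -0.53, SE 0.113, adjusted p = 0.000364), with the widest error of the called genes of this set, and the ranges overlapped because the second enzalutamide library reached 37.3 CPM. PCK2, the mitochondrial carboxykinase, lay from 83.3 to 118 CPM (median 97.1) and from 86 to 109 CPM, and its difference did not pass the test (log2 fold change -0.06, SE 0.0707, adjusted p = 0.474).

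At the entry to the cycle, citrate synthase and the cytosolic aconitase changed by small amounts in opposite directions. CS, which joins acetyl-CoA and oxaloacetate, lay from 487 to 565 CPM (median 552) under R1881 and from 464 to 509 CPM with enzalutamide (log2 fold change -0.17, SE 0.0363, adjusted p = 0.000398). ACO1, the cytosolic aconitase that also acts as an iron sensor, lay from 94.7 to 101 CPM (median 98.7) and from 107 to 109.6 CPM, above every R1881 library (log2 fold change 0.14, SE 0.0279, adjusted p = 0.000136).

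Isocitrate dehydrogenases turn isocitrate into 2-oxoglutarate. Of 5 genes 3 fell and 2 did not pass the test. Of all genes tested, 62.5% were called in either direction and 32.7% lower, and 5 genes are too few to set against these shares. IDH1, the NADP-dependent enzyme of cytosol and peroxisomes (chromosome 2, 208236229 to 208266074, minus strand), lay from 1076 to 1243 CPM (median 1177) under R1881 and at 451, 399, 437, 449 and 443 CPM with enzalutamide. The means were 1167 ± 57.4 CPM under R1881 (SD, n = 10) and 436 ± 21.3 CPM with enzalutamide (SD, n = 5), a 2.68-fold lower level (log2 fold change -1.42, SE 0.0384, adjusted p = 7.09e-18). The second enzalutamide library was the lowest, and the R1881 medians were 1222 CPM in libraries 51 to 55 and 1172 CPM in libraries 71 to 75. IDH2, the mitochondrial NADP-dependent enzyme (chromosome 15, 90083045 to 90102477, minus strand), lay from 154 to 184 CPM (median 164) and at 121, 132, 127, 118 and 121 CPM, without overlap (log2 fold change -0.41, SE 0.0408, adjusted p = 1.95e-08). The NAD-dependent enzyme of the cycle is built from IDH3A, IDH3B and IDH3G, and 1 of these 3 genes passed the test. IDH3A, the catalytic subunit (chromosome 15, 78131498 to 78171945, plus strand), lay from 74.6 to 86.5 CPM (median 81.2) and at 59.4, 58.6, 60.5, 56.8 and 55.6 CPM, again without overlap (log2 fold change -0.47, SE 0.0378, adjusted p = 7.2e-10). Of the windows of its transcript 63.5% also occur in transcripts of ACSBG1 on the opposite strand, so its count is uncertain. IDH3B lay from 60.4 to 67.8 CPM (median 64.7) and from 61.5 to 68 CPM (log2 fold change 0.00, SE 0.0368, adjusted p = 0.968). IDH3G lay from 43.7 to 59.7 CPM (median 48.1) and from 39.3 to 52 CPM (log2 fold change -0.15, SE 0.0707, adjusted p = 0.0756). It passed the test when the second enzalutamide library (-0.20, adjusted p = 0.0155) or the tenth R1881 library (-0.17, adjusted p = 0.0446) was left out. IDH3G also passed after removal of the GC trend from each library (-0.12, adjusted p = 0.00626), an alternative added after seeing the data.

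The 2-oxoglutarate dehydrogenase complex makes succinyl-CoA. OGDH, its first enzyme (chromosome 7, 44606572 to 44709066, plus strand), lay from 259.9 to 321 CPM (median 283) under R1881 and at 189, 227, 196, 195 and 199 CPM with enzalutamide. The groups did not overlap, although the second enzalutamide library was well above the other four (log2 fold change -0.50, SE 0.0479, adjusted p = 1.11e-08). DLST, the succinyltransferase core, lay from 156 to 172 CPM (median 163) and at 151, 150.0, 151, 144 and 149 CPM. Its small fall (log2 fold change -0.13, SE 0.0299, adjusted p = 0.000666) did not pass the test with library totals of 1000000 (-0.04, adjusted p = 0.227). With DLD as the third enzyme, 2 of 3 genes of this complex fell, while 32.7% of all genes tested were called lower.

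Succinyl-CoA ligase pairs the alpha subunit SUCLG1 with a GTP-forming beta subunit, SUCLG2, or an ATP-forming one, SUCLA2. SUCLG1 lay from 60.0 to 67.6 CPM (median 63.8) under R1881 and at 73.4, 68.1, 72.7, 65.4 and 69.6 CPM with enzalutamide, with overlap. It rose (log2 fold change 0.13, SE 0.0392, adjusted p = 0.00707), but not past the test against libraries 71 to 75 alone (0.11, adjusted p = 0.0532). SUCLG2 lay from 122 to 145 CPM (median 133) and at 138, 123, 134, 138 and 134 CPM (log2 fold change 0.01, SE 0.0397, adjusted p = 0.908). SUCLA2 lay from 89.4 to 104 CPM (median 97.2) and at 97.3, 89.2, 93.7, 94.5 and 95.7 CPM (log2 fold change -0.03, SE 0.0384, adjusted p = 0.53). Neither beta subunit passed the test.

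Succinate dehydrogenase belongs both to the cycle and, as complex II, to the respiratory chain. The test was passed by 1 of its 4 genes, while 62.5% of all genes tested were called. SDHC, a membrane anchor, lay from 229 to 262 CPM (median 252) and from 256 to 282 CPM and rose slightly (log2 fold change 0.11, SE 0.0345, adjusted p = 0.00941). The log2 fold change was 0.01 (adjusted p = 0.924) for the flavoprotein SDHA, 0.04 (adjusted p = 0.46) for the iron-sulfur subunit SDHB and 0.00 (adjusted p = 0.963) for the anchor SDHD, and the ranges overlapped for each. SDHA lay from 112 to 134 CPM (median 118) and from 114 to 132 CPM, SDHB from 51.3 to 61.6 CPM (median 57.1) and from 55.8 to 59.7 CPM, and SDHD from 68.1 to 81.8 CPM (median 74.3) and from 64.5 to 79.3 CPM. SDHB was called higher with library totals of 1000000 (0.13, adjusted p = 0.00914). Of the SDHA windows 73.6% also occur in other genes, so its value is uncertain. Most of these (67.2% of the SDHA windows) occur in a gene that overlaps SDHA on the same strand, and SDHAP3 is among the other genes.

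Fumarase and malate dehydrogenase close the cycle. FH, the fumarase, lay from 152 to 169.9 CPM (median 161) and at 153, 137, 148, 142 and 142 CPM, with overlap. It fell (log2 fold change -0.16, SE 0.0355, adjusted p = 0.00057), though not past the test with library totals of 1000000 (-0.07, adjusted p = 0.0748). The mitochondrial malate dehydrogenase MDH2 lay from 264 to 328 CPM (median 280.0) and from 249.9 to 302 CPM (log2 fold change -0.06, SE 0.0492, adjusted p = 0.284). Its cytosolic counterpart MDH1 lay from 145 to 158 CPM (median 149.7) and from 132 to 152 CPM (log2 fold change -0.06, SE 0.0358, adjusted p = 0.174).

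Relations between subunits or isozymes were compared as the log2 ratio of CPM + 0.5 within each library, which removes the scaling between libraries but is not a ratio of levels per length. For 6 pairs the groups were compared with an exact permutation test (two-sided, 3003 possible regroupings), where 0.000333 is the smallest p the design gives. MPC1 over MPC2 was -5.06 ± 0.12 under R1881 (SD, n = 10) and -3.07 ± 0.09 with enzalutamide (SD, n = 5), a difference of 1.99 (exact permutation p = 0.000333, adjusted 0.0005). PDK1 over PDK2 was 1.55 ± 0.27 under R1881 (SD, n = 10) and 0.5 ± 0.22 with enzalutamide (SD, n = 5), and the linear ratio went from 2.93 to 1.41 (exact permutation p = 0.000333, adjusted 0.0005). PDK3 over PDK2 was 0.38 ± 0.18 under R1881 (SD, n = 10) and -0.39 ± 0.23 with enzalutamide (SD, n = 5) (difference -0.77, exact permutation p = 0.000333, adjusted 0.0005). IDH1 over IDH2 was 2.82 ± 0.14 under R1881 (SD, n = 10) and 1.81 ± 0.13 with enzalutamide (SD, n = 5) (difference -1.01, exact permutation p = 0.000333, adjusted 0.0005). In these 4 pairs the groups did not overlap. PC over PDHA1 was -0.84 ± 0.28 under R1881 (SD, n = 10) and -1.34 ± 0.21 with enzalutamide (SD, n = 5), with overlap (difference -0.50, exact permutation p = 0.004, adjusted 0.0048). SUCLG2 over SUCLA2 was 0.47 ± 0.09 under R1881 (SD, n = 10) and 0.5 ± 0.03 with enzalutamide (SD, n = 5), and this difference of 0.03 did not pass the test (exact permutation p = 0.436, adjusted 0.436). Against libraries 51 to 55 or 71 to 75 alone, the difference was 1.96 and 2.01 for MPC1 over MPC2, -1.23 and -0.87 for PDK1 over PDK2, and -1.04 and -0.98 for IDH1 over IDH2.

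**Figure D3:**
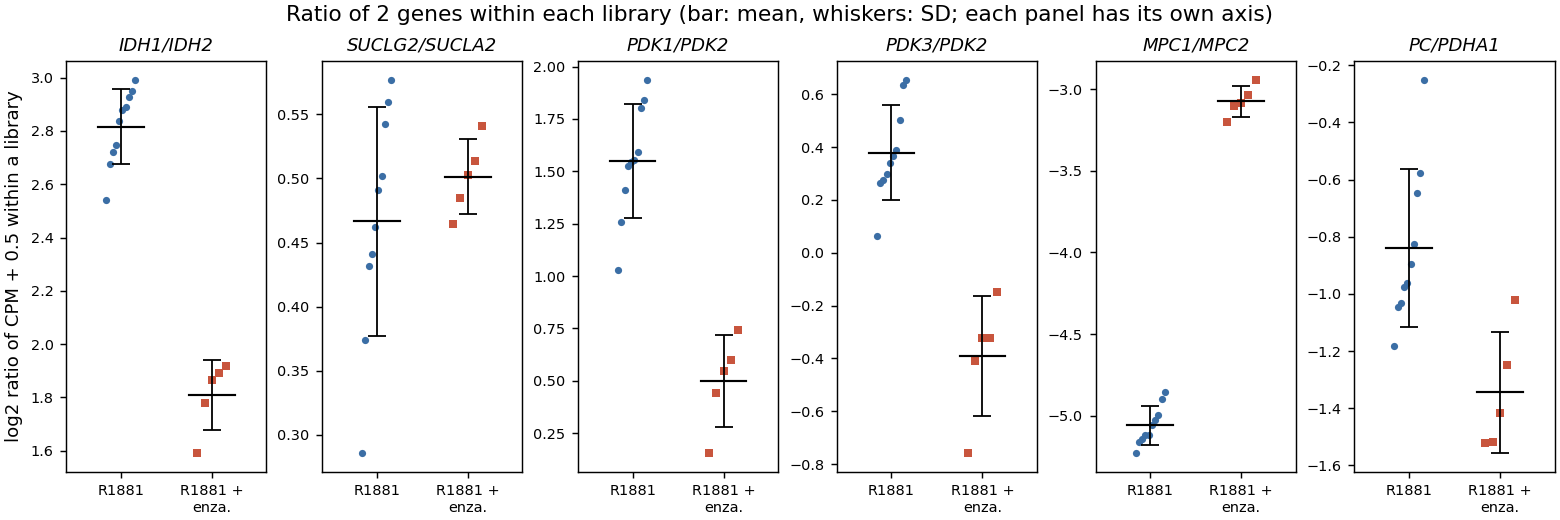
Log2 ratio of CPM + 0.5 of 2 genes within each library, for 10 R1881 and 5 R1881 + enzalutamide (enza.) libraries, with the mean as a bar and the SD as whiskers; each panel has its own axis. The groups are apart for IDH1/IDH2, PDK1/PDK2, PDK3/PDK2 and MPC1/MPC2, and overlap for SUCLG2/SUCLA2 and PC/PDHA1.

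Genes that feed, drain or regulate these steps were taken from a list of 42 partners, of which 37 had a row and the other 5 (PDK4, ME3, PCK1, SLC39A2 and BCKDHA) were not analysed here. Of the 37 genes, 20 were lower and 11 were higher, and 6 did not pass the test (83.8% called, against 62.5% of all genes), with a median log2 fold change of -0.18. A citrate user and a citrate exporter fell without overlap. ACLY, which splits cytosolic citrate for fatty acid synthesis, lay from 747 to 829.3 CPM (median 806) under R1881 and at 407, 426, 395, 410.5 and 417 CPM with enzalutamide (log2 fold change -0.95, SE 0.0323, adjusted p = 3.56e-16). ANKH, which carries citrate out of cells, lay from 229 to 241 CPM (median 235) and at 84.9, 83.4, 85.8, 81.9 and 80.4 CPM (log2 fold change -1.49, SE 0.0274, adjusted p = 9.44e-21). The zinc importers SLC39A1 (-0.33, adjusted p = 3.49e-07) and SLC39A3 (-0.47, adjusted p = 3.65e-05) were lower as well.

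Amino acid entry into the cycle split by gene. Of 6 genes of glutamine entry and aminotransferases, 4 fell and 2 rose, while 32.7% of all genes tested were called lower and 29.8% higher. GLUD1, the dehydrogenase that turns glutamate into 2-oxoglutarate, lay from 567 to 644 CPM (median 614) under R1881 and at 224, 212, 218, 220.3 and 216 CPM with enzalutamide (log2 fold change -1.48, SE 0.033, adjusted p = 2.44e-19). Its near copy GLUD2 lay from 140.0 to 162 CPM (median 148) and from 49.8 to 53.9 CPM (log2 fold change -1.51), but 32.2% of the GLUD2 windows occur in other genes, mostly GLUD1, so the 2 rows are not independent. The aspartate aminotransferases GOT1 (cytosolic, -0.70, adjusted p = 1.92e-13) and GOT2 (mitochondrial, -0.54, adjusted p = 5.1e-12) fell. GLS2, a glutaminase, rose from a median of 7.74 CPM to 15.8, 16.1, 14.6, 14.7 and 13.5 CPM (log2 fold change 0.93, SE 0.0644, adjusted p = 6.87e-11). SLC25A13, the mitochondrial aspartate and glutamate carrier, fell (log2 fold change -0.77, SE 0.0429, adjusted p = 1.75e-12).

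Around pyruvate, LDHA, the lactate dehydrogenase subunit that favours lactate, lay from 703 to 798 CPM (median 756) and at 442, 402, 432, 426 and 429.6 CPM (log2 fold change -0.83, SE 0.0318, adjusted p = 2.69e-15), and 12.2% of its windows occur in other genes, among them its pseudogenes. PDP1, a phosphatase that switches pyruvate dehydrogenase back on, lay from 11.2 to 15.6 CPM (median 13.8) and at 21.3, 21, 22.9, 23.4 and 21.3 CPM and rose (log2 fold change 0.67, SE 0.0714, adjusted p = 6.3e-08). PDP2, another such phosphatase with a higher level in both groups, fell without overlap. It had a median of 60.2 CPM under R1881 and 48.4 CPM with enzalutamide (log2 fold change -0.32, adjusted p = 1.34e-06). OGDHL, a relative of OGDH, lay from 7.29 to 10.6 CPM (median 8.68) and at 12.6, 14.4, 13.5, 12.5 and 13.7 CPM and rose as OGDH fell (log2 fold change 0.59, SE 0.0889, adjusted p = 7.54e-06). NNT, which makes mitochondrial NADPH, had the lowest log2 fold change of the partners. It lay from 4.32 to 6.48 CPM (median 5.57) under R1881 and at 0.419, 0.233, 0.273, 0.404 and 0.47 CPM with enzalutamide, which is 5 to 12 reads per library (log2 fold change -2.81, SE 0.0981, adjusted p = 5.95e-16), and at such counts the added 0.5 makes the fold smaller than that of the CPM.

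**Figure D4:**
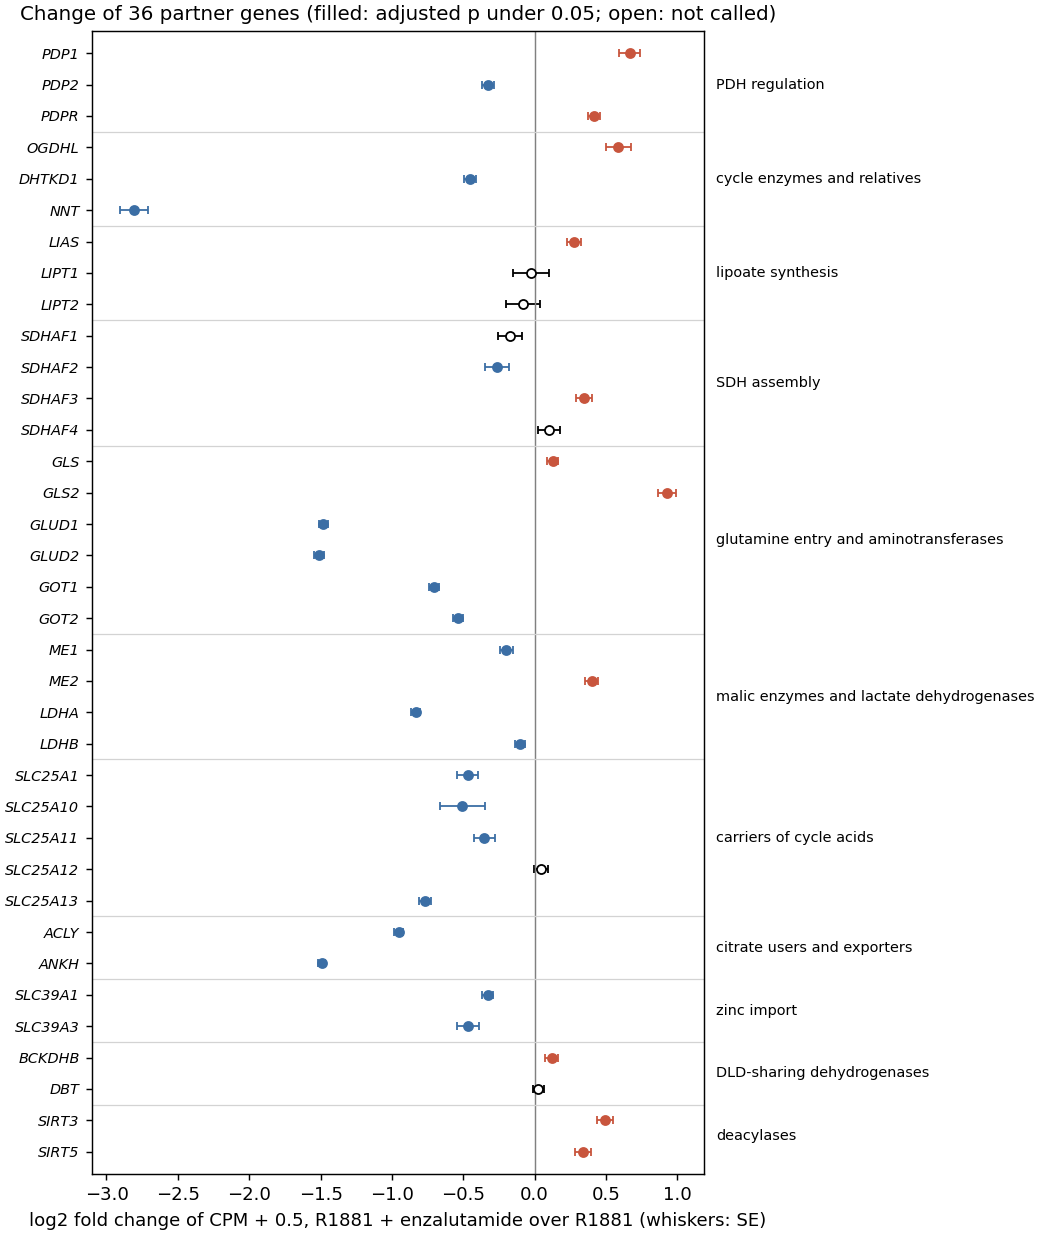
Log2 fold change of R1881 + enzalutamide over R1881 for 36 of the partner genes, grouped by role, with whiskers for the SE (10 and 5 libraries); blue filled points were called lower, red filled points called higher, and open points were not called. NNT (-2.81) lies farthest to the left, followed by GLUD2, ANKH and GLUD1, and GLS2 (0.93) lies farthest to the right.

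Some of the 31 genes start close to a gene on the opposite strand, and these 7 pairs were picked after their values were seen. PDHX and APIP, a gene of methionine salvage, start 239 bases apart, so nearly all of the PDHX stretch printed above lies between both starts. APIP lay from 32.4 to 42.6 CPM (median 37.1) under R1881 and at 17.5, 17, 18.5, 18 and 16.2 CPM with enzalutamide (log2 fold change -1.10, SE 0.0586, adjusted p = 8.5e-13). DCAF6, which starts 389 bases inside MPC2, lay from 382 to 475 CPM (median 432) and at 207, 180.2, 206, 206 and 204 CPM (log2 fold change -1.11, SE 0.0456, adjusted p = 9.75e-15). In both pairs the 2 neighbours were lower in every enzalutamide library. The transcript of MPC2 shares 4.23% of its windows with DCAF6, and that of PDHX shares 0%. The neighbour had a log2 fold change of -0.34 (adjusted p = 0.000527) for SSR4 beside IDH3G, 0.18 (adjusted p = 0.00152) for STYXL1 beside MDH2, -0.11 (adjusted p = 0.0522) for TIMM8B beside SDHD, 0.07 (adjusted p = 0.316) for CCDC127 beside SDHA and 0.01 (adjusted p = 0.957) for WDPCP beside MDH1. The antisense gene IDH1-AS1, which overlaps the span of IDH1, had a log2 fold change of -0.83 (adjusted p = 1.1e-05). Of the windows of the IDH1 transcript 0.573% occur in another gene, which is not IDH1-AS1. Whether IDH1 exons outside this transcript share sequence with IDH1-AS1 was not tested.

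**Figure D5:**
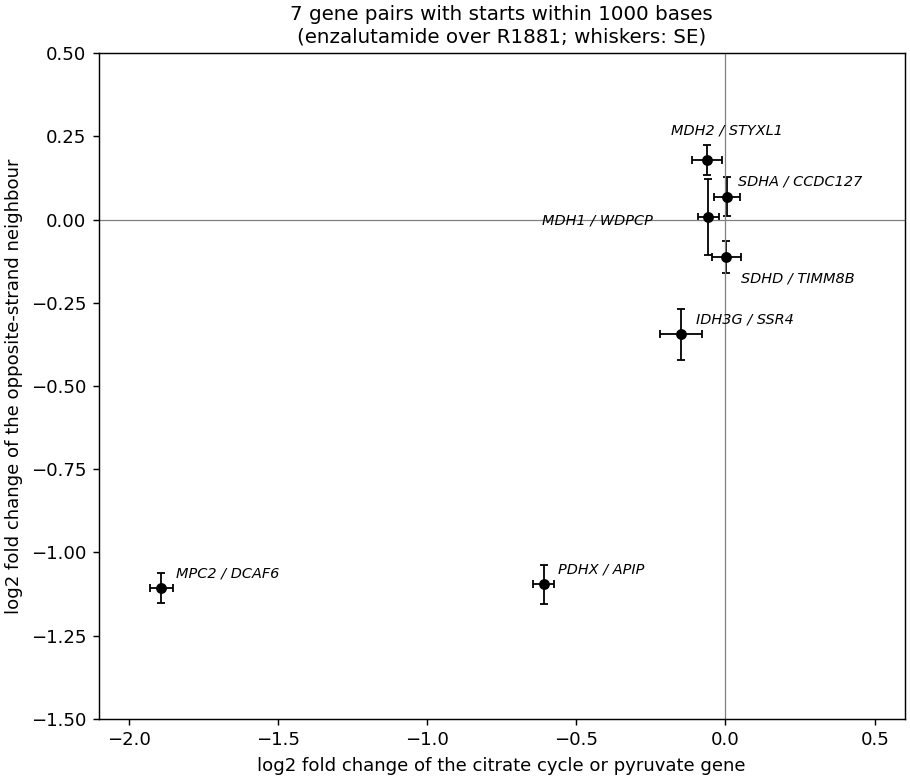
Log2 fold change (R1881 + enzalutamide over R1881) of 7 of the genes on the x axis and of their opposite-strand neighbours, with starts within 1000 bases, on the y axis; whiskers are SE. MPC2 with DCAF6 and PDHX with APIP lie at the lower left, and the other 5 pairs lie near 0 on the x axis.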

How the data were processed

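Polyadenylated RNA of LNCaP cells was sequenced in 15 libraries, 10 with R1881 and 5 with R1881 and enzalutamide, as the sample labels give them, whereas the methods text swaps these numbers. Reads were aligned to GRCh38 (STAR) and assigned to genes (featureCounts) by the authors, and the sources used here do not give the versions of these tools. The authors deposited a normalized signal per gene, called CPM, whose columns sum to 985580 to 1078567. All values (100%) were whole multiples of 1 read within 0.01 reads. The design had assumed CPM, and the values were used as deposited.

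Differences were tested with limma 3.58.1 in R 4.3.3, with a mean-variance trend, a pseudocount of 0.5 on the log2 scale, a minimum mean of 0.5 CPM (17046 genes), treatment as the only term and Benjamini-Hochberg adjustment over all genes at 0.05. Fold changes are on that log2 scale. The alternatives were edgeR 4.0.16 and DESeq2 1.42.0 on recovered reads, other pseudocounts, filters and scalings, a replicate block, each R1881 series alone and each library left out. Removal of the GC trend was added after seeing the data. Of the tests, only limma and edgeR were run on simulated reads. These reads had far fewer changed genes and no GC trend, so they do not cover the conditions of these data. All 31 genes are named, with every enzalutamide library given for those called with a log2 fold change of at least 0.4 in size, those in a ratio, and those whose call is lost under another scaling or against a single R1881 series. Partners are named when called at 0.5 or more in size, up to the 12 largest. Names outside this rule (PDP2, SLC39A1, SLC39A3 and the neighbouring genes) were chosen after their values were seen. Results for an item among the partners are not reported here. The genes and lists were chosen with earlier results of these data known. The methods call the libraries biological replicates. Positions are from GENCODE v44 and promoters from RefSeq, which had no window here for OGDH and SDHC.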

Additional observations from a re-analysis of the deposited data

Results flagged for a closer look

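In 5 of 74 groups of libraries examined a single library lay far from the others by Dixon's test, where chance alone gives about 3.7. In 4 of these it was the second enzalutamide library. It held 399 CPM of IDH1 (the others 437 to 451), 227 CPM of OGDH (the others 189 to 199), 224 CPM of DLD (the others 243 to 251) and 123 CPM of SUCLG2 (the others 134 to 138). The fourth enzalutamide library held 143.5 CPM of DLST, where the others held 149 to 151. Without the second enzalutamide library 18 of the 31 genes were called, as with it, but PDHB had lost its call and IDH3G had gained one.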

How the results depend on the processing

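MPC2 kept its call in each alternative, between -1.93 and -1.80 on the log2 scale, as did IDH1 between -1.45 and -1.33. With library totals of 1000000, 8 of the 31 genes were called higher, beside 4, and 10 lower, beside 14. PDHB then had a log2 fold change of 0.00 with the sign turned, DLST, FH and PDK3 lost their calls, and IDH3B, SUCLG2, SDHB and MPC1 were then called higher. The median of all genes was 0.07 under that scaling, beside -0.01, and the cause was not tested further. Of the 31 genes 17 were called by edgeR, 18 by DESeq2, 19 against libraries 51 to 55, 15 against libraries 71 to 75, 19 after removal of the GC trend (72.7% of all genes called, GC content known for 80.9% of genes) and 18 to 19 with single libraries left out, while 58.9% to 63.8% of all genes were called in the alternatives other than GC removal and library totals. The labels share the numbers 1 to 5 between groups, but libraries with the same number did not deviate together (correlations -0.0678 to 0.0739, and 0 of 5 numbers correlated best with their own). The replicate block used only the libraries numbered 1 to 5 in each group, so the other R1881 libraries were left out. With it 16 of the 31 genes were called, 12 lower and 4 higher, and PDHB and PDK3 lost their calls. The block and the smaller number of R1881 libraries cannot be told apart here. For the ratios within a library, an exact permutation test over 5 pairs cannot reach 0.05, and no other paired test was run. For genes such as NNT, few reads limit the precision, and 5 enzalutamide libraries limit it for all.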
